A study of Mus musculus with 2 samples.

Results

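The genes described here are the MHC and antigen presentation genes of the mouse lens array: every gene that the array lists under a name beginning with H2-, the mouse MHC, together with the class I light chain B2m, the peptide loading genes Tapbp, Tap2 and Tap1, the class II partners Cd74 and Ciita, the immunoproteasome subunits Psmb10, Psmb9 and Psmb8, and the proteasome activator subunits Psme2 and Psme1. By this rule 50 of the 27343 genes on the array were members, represented by 78 probes of 60 bases, and 43 of the 50 had a probe mapped to chromosome 17, where the MHC lies. RNA of whole lenses at postnatal day 1 was compared between a conditional knockout of Msx2, labelled Le-Cre Msx2 CKO and called CKO below, and a control labelled Msx2 wild type. The Le-Cre transgene drives Cre recombinase in the surface ectoderm, which forms the lens and its neighbouring epithelia, and Msx2 encodes a homeobox transcription factor. The strain, the number of animals behind each RNA and whether the wild type carried Le-Cre were not stated in the sources used here. With 1 array per genotype, no difference has a replicate check, and p-values are not given.

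MHC class I molecules are carried by most nucleated cells. A polymorphic heavy chain pairs with the light chain B2m and is loaded in the endoplasmic reticulum with peptides that the proteasome has cut and the transporter Tap1-Tap2 has brought in, with tapasin (Tapbp) bridging transporter and heavy chain. MHC class II molecules are made mainly by antigen presenting cells such as macrophages, dendritic cells and B cells, need the invariant chain Cd74 and the H2-DM chaperone, and depend on the transactivator Ciita. The lens itself has no vessels of its own, and around birth a capillary network still covers it.

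The MHC genes were more often higher in CKO than lower. Of the 50 members, 20 were measured, that is, had a probe well above background on both arrays, as 52% of all genes were. Of these 20, 8 were at least 2-fold higher in CKO, namely H2-K2, H2-Q10, H2-Q2, H2-Q4, Psmb8, B2m, H2-Q7 and H2-T23, which is 40% where 4.11% of the 14221 measured genes were at least 2-fold higher. H2-Eb1 alone, 1 of 20, was at least 2-fold lower, where 3.98% of measured genes were. With each array scaled to its median these shares were 3.3% and 5.93%, with 8 and 1 members counted. A further 8 members were well above background in CKO only, among them Cd74 and the class II chains H2-Ab1 and H2-Aa, and 0 in wild type only. Over all genes these shares were 3.91% and 3.15%. The remaining members were 1 gene whose probes disagreed (H2-DMb1) and 21 that were not well above background on either array. Over all 27343 genes these counts were 18 and 11173.

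Across the 20 measured members the median log2 difference, CKO minus wild type, was 0.45 (1.37-fold), beside -0.12 over all measured genes. Above 0 were 14 of the 20 members, beside 5584 of the 14221 measured genes. The SD of the difference over all measured genes was 0.60. Single spots of the 126 probes printed repeatedly had differences with an SD of 0.23 on the log2 scale, and different probes of the same gene differed with an SD of 0.36 (4847 genes). The SD of 0.23 is technical and that of 0.36 lies between probes read on the same arrays, and neither measures the spread between animals. The SD of 0.60 mixes technical spread with any differences between the genotypes or animals, which cannot be separated here.

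**Figure D1:**
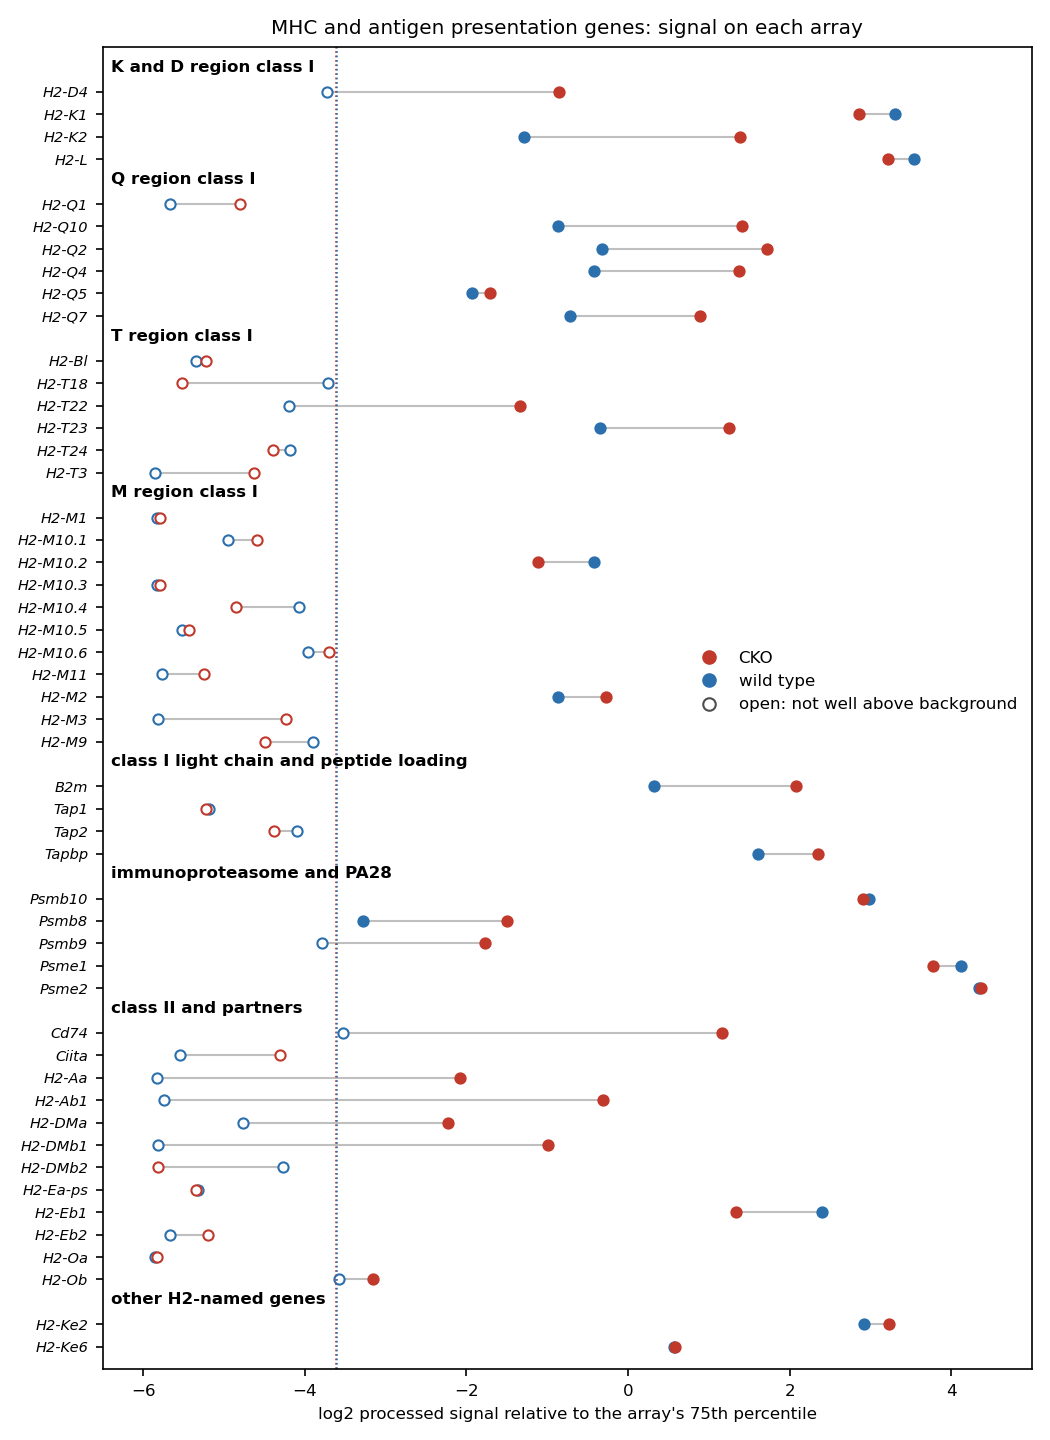
Signal of each of the 50 MHC and antigen presentation genes on the CKO array (red) and the wild-type array (blue), as log2 processed signal relative to the array's 75th percentile, ordered by role, with 1 probe shown per gene. Open circles are not well above background, dotted lines mark the lowest signal well above background on each array, and most Q region genes, B2m, Cd74, H2-Ab1 and H2-Aa are among those with the widest gaps, while H2-K1, H2-L and H2-Eb1 lie lower in CKO.

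On the arrays as a whole, 22702 probes (55.1%) in CKO and 22326 (54.2%) in wild type were well above background, the local background was 38 and 37.5 intensity units, and no spot was saturated. Intensity is the brightness of a spot after background correction, and 1 scaled unit below is the array's 75th percentile, 203 intensity units in CKO against 201 in wild type. The lowest signal well above background was 16.5 intensity units in CKO against 16.6 in wild type. Msx2 itself gave 371 ± 15.9 intensity units in wild type (SD over 10 spots) and 4.62 ± 1.77 in CKO, where 0 of its 10 spots were well above background, as the labels say. All 17 lens markers were measured, with a median log2 difference of -0.19 (0.15 with intensity-dependent centring) and summed scaled levels of 13423 in CKO and 15466 in wild type.

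Because the class I genes are copies of each other, the probe sequences bear on which gene each value belongs to, and 3 pairs of probes are shown for that reason. The best ungapped overlap of 2 probes is given in capitals, as read 5′ to 3′ in the deposited files. The probes of H2-Q7 and H2-T23 shared 50 of 60 bases.
H2-Q7: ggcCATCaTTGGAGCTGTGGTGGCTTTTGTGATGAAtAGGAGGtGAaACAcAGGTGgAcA
H2-T23: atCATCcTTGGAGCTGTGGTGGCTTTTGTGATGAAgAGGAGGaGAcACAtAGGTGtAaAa
The brightest probes of H2-L and H2-Q2 shared 47 of 60.
H2-L, brighter probe: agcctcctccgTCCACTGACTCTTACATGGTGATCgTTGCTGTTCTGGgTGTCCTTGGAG
H2-Q2: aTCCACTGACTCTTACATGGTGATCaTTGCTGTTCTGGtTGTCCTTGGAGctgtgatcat
A pair of H2-K1 probes, the one printed as 10 spots and one with no genome position in the files, shared 49 of 60.
H2-K1, 10-spot probe: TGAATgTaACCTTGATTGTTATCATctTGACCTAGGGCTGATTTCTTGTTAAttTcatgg
H2-K1, unmapped probe: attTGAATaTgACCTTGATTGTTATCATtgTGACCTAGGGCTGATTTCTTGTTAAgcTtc
H2-Q7 and H2-T23 differed between the genotypes by nearly the same amount (log2 1.61 and 1.60), and so did the pair of H2-K1 probes (1.62 and 1.62). H2-L and H2-Q2 did not, at -0.32 and 2.04. How far these probes hybridise to each other's transcripts was not tested, so a value stands for the probe's sequence and its close copies. The strain behind each RNA was not stated. At probes of polymorphic H2 genes, a difference of allele between the arrays and a difference of level cannot be told apart. Probe positions below are those of the files (mm9). Where a probe lies relative to exons and introns was not analysed here.

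The K and D region holds the classical class I heavy chains, and its probes went both ways. The brightest H2-K1 probe (chr17:34136478-34136724) read 1466 intensity units in CKO against 1992 in wild type, a log2 difference of -0.45. The H2-K1 probe printed as 10 spots (chr17:34133055-34133114) read 718 ± 35.7 in CKO and 232 ± 15.3 in wild type (SD over 10 spots), and was 3.07-fold higher in CKO. The 2 sets of 10 spots did not overlap, and the brightest probe was on the other side of 0. For this and the other repeated member probes, the share of all repeated probes without overlap is not given here. The unmapped H2-K1 probe, at 222 and 72.1 intensity units, was 3.07-fold higher as well, and another H2-K1 probe was well above background in CKO only (50.5 against 8.37, at least 3.03-fold). H2-K1 therefore counted as lower by its brightest probe while its other 3 probes were higher.
H2-K1, brightest probe: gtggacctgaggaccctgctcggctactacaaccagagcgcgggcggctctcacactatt
This brightest probe covers 247 bases of mm9 for its 60 bases, and its best overlap with another member's probe was 46 of 60 bases, with H2-Bl, listed by RefSeq as a transcribed pseudogene and not well above background on either array.

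H2-L, a classical class I name of the D region, showed the same split. Its brighter probe (chr17:35403132-35403191), whose accessions RefSeq assigns to H2-D1 and H2-Q2, read 1879 intensity units in CKO against 2333 in wild type, a log2 difference of -0.32. Its other probe, assigned to H2-D1 alone, read 331 and 115 and was 2.86-fold higher in CKO.
H2-L, other probe: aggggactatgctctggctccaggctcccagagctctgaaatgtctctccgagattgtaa
With the mean of all measured probes in place of the brightest, the differences turned from lower to higher in CKO, to log2 0.93 for H2-K1 and 0.60 for H2-L. The direction of both classical genes thus depends on the probe.

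The remaining K and D names are listed by RefSeq as transcribed pseudogenes. H2-K2 gave 531 intensity units in CKO against 82.6 in wild type, 6.38-fold higher, which was the largest difference of the measured members. H2-D4 was seen in CKO only, at 112 against 15.2 intensity units, at least 6.71-fold higher. The denominator of an at-least value is the probe's own signal on the array where it was not seen or, if that is lower, the dimmest signal still well above background on that array.

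**Figure D2:**
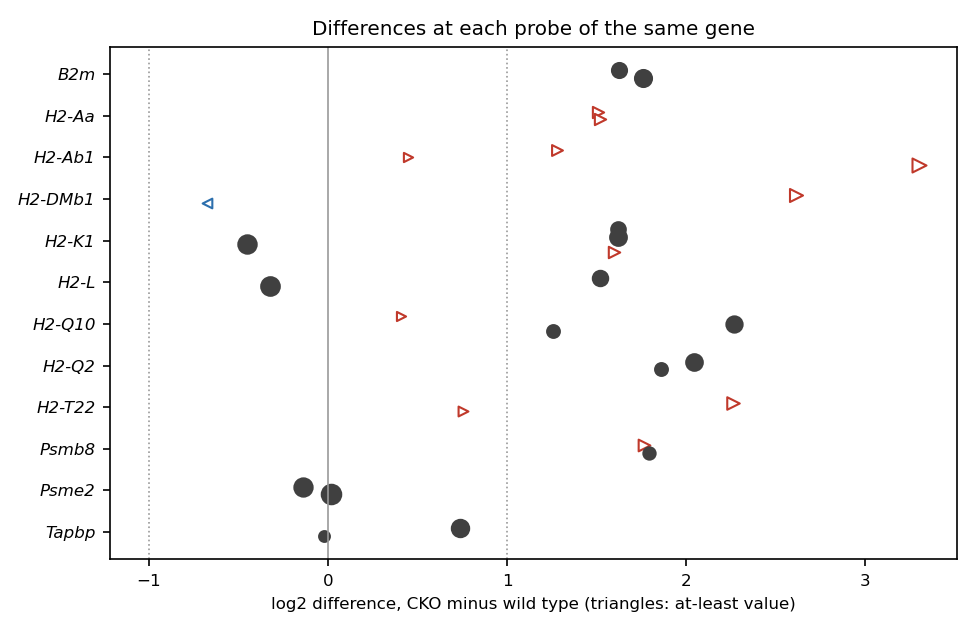
Log2 difference, CKO minus wild type, at each probe of the members with several informative probes. Filled circles are probes measured on both arrays, triangles are at-least values of probes seen on 1 array (red in CKO, blue in wild type), larger symbols are brighter probes, and dotted lines mark 2-fold. For H2-K1 and H2-L the brightest probe lies below 0 (-0.45 and -0.32) and the others above 1.

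In the Q region, which encodes non-classical class I molecules, the differences ran one way. Of its 6 members 5 were measured, all 5 were above 0, 4 were at least 2-fold higher and the median log2 difference was 1.79. Over all 14221 measured genes 5584 were above 0 and 584 at least 2-fold higher. H2-Q10, known as a secreted class I molecule of liver, gave 537 intensity units in CKO against 111 in wild type (4.82-fold) at a probe that RefSeq assigns to H2-D1 and H2-T-ps as well, and 90.9 and 37.8 (2.39-fold) at another probe assigned to H2-Q10 alone. H2-Q2 gave 667 and 161 (4.12-fold), with another probe at 92.8 and 25.4 (3.62-fold). In both genes each measured probe was higher in CKO. Of the other H2-Q10 probes, 1 was seen in CKO only (22.1 against 4.61, at least 1.33-fold) and 2 on neither array.

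H2-Q4 gave 524 intensity units in CKO against 150 in wild type, 3.47-fold higher. H2-Q7, a Qa-2 antigen gene whose probe RefSeq assigns to H2-Q9 too, gave 377 ± 20.4 over 10 spots and 123 ± 9.78 over 9 spots, 3.06-fold higher, and the spots of the arrays did not overlap. H2-Q5, a transcribed pseudogene in RefSeq, gave 62.0 and 52.7, a log2 difference of 0.23 that is no larger than the SD of a single spot. H2-Q1 was not well above background on either array.

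In the T region 1 of 6 members was measured. H2-T23, which encodes Qa-1, the ligand of an inhibitory receptor on natural killer cells, gave 484 intensity units in CKO against 159 in wild type, 3.03-fold higher. H2-T22, a ligand of some gamma delta T cells, was seen in CKO only, at 80.0 against 10.95 (at least 4.80-fold) and 28.2 against 14.6 (at least 1.69-fold) at 2 probes. H2-T3, H2-T18, H2-T24 and H2-Bl were not well above background on either array.

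The M region behaved otherwise. Of its 11 members 2 were measured and neither passed 2-fold. H2-M2 gave 168 ± 12.4 intensity units in CKO against 112 ± 18.1 in wild type over 10 spots each, 1.51-fold higher. The spots lay between 156 and 194 in CKO and between 78.2 and 134 in wild type and did not overlap. H2-M10.2 gave 93.5 and 150, a log2 difference of -0.69. The other 9, among them H2-M3, which presents formylated peptides, and 5 more M10 genes, known from the vomeronasal organ, were not well above background on either array.

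Taking all 27 class I heavy chain names, 11 were measured, with a median log2 difference of 1.60 (3.03-fold). Of these 11, 6 were at least 2-fold higher and 0 lower, while 2 names were seen in CKO only and 14 on neither array. Over all measured genes 4.11% were higher and 3.98% lower, with a median of -0.12, and 3.91% of all genes were seen in CKO only. Probes of close copies may share signal, so the 6 may not be separate readings. All 6 stayed at least 2-fold higher under every alternative setting that measured them.

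**Figure D3:**
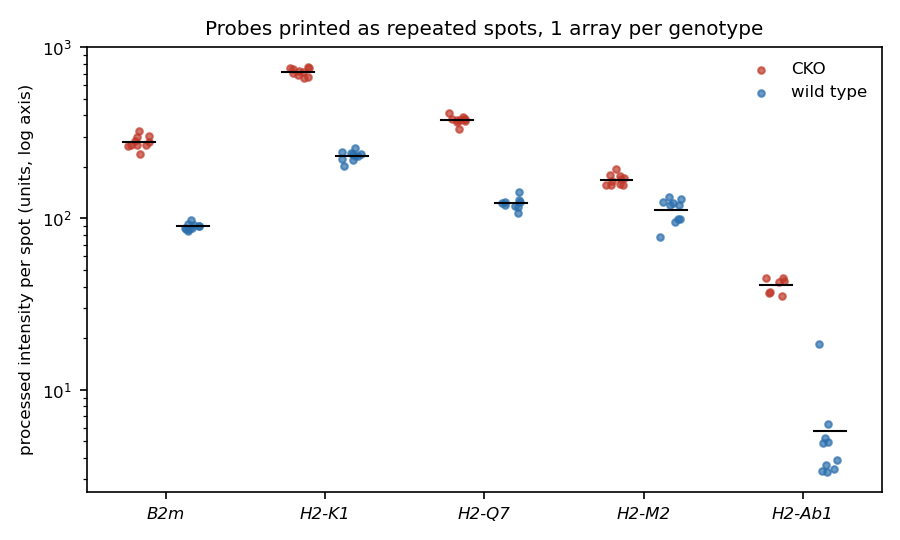
Processed intensity (log axis) of each kept spot of the 5 member probes printed as repeated spots, on the CKO array (red) and the wild-type array (blue), with the mean as a bar. The spots repeat 1 RNA on 1 array and are not replicates of a genotype. The spots of the arrays do not overlap, with H2-M2 the closest. How often this held for the other repeated probes of the arrays is not given here.

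The light chain was higher in CKO, as were 4 of the 6 Q region genes. B2m gave 855 intensity units in CKO against 251 in wild type at its brightest probe (chr2:121978401-121978460), 3.38-fold higher. Its 10-spot probe gave 279 ± 24.6 and 89.8 ± 3.79, 3.08-fold higher, with CKO spots from 237 to 326 and wild-type spots from 84.9 to 98.2. The spots did not overlap, and the difference stayed above 2-fold under all settings. The remaining B2m probe was not well above background on either array.
B2m, brightest probe: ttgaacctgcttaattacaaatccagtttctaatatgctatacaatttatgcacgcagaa
The peptide loading genes did not pass 2-fold. Tapbp was measured at 1035 intensity units in CKO against 615 in wild type, 1.67-fold higher, but its other probe read 39.0 and 39.4. Both transporter subunits stayed near background, with Tap1 at 5.41 and 5.51 intensity units and Tap2 at 9.74 and 11.7. For these 2 genes the arrays give no level.

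The immunoproteasome exchanges 3 catalytic subunits of the standard proteasome for Psmb8, Psmb9 and Psmb10 and produces peptides fit for class I. Psmb8 gave 72.1 intensity units in CKO against 20.7 in wild type, 3.46-fold higher, and its other probe was seen in CKO only (56.7 against 16.5, at least 3.40-fold). Psmb9 was seen in CKO only, at 59.2 against 14.5, at least 3.55-fold higher. Psmb10 gave 1525 and 1593, a log2 difference of -0.07.
Psmb8: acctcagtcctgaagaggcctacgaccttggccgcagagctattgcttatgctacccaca
Psmb9: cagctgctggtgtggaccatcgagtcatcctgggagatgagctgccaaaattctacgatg
The 2 subunits that were higher are the ones encoded inside the MHC on chromosome 17, beside the Tap genes, and Psmb10 lies elsewhere. Both were near background in wild type: the signal of Psmb8 there was close to the lowest signal well above background, and with normexp background correction its difference fell to log2 0.69, under 2-fold, as did the bound of Psmb9 (0.57). The activator subunits Psme1 (2773 and 3510 intensity units, log2 difference -0.35) and Psme2 (4180 and 4100, 0.02) did not pass 2-fold.

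Among the 12 class II genes and partners, 1 was measured on both arrays and 5 were seen in CKO only. Over all genes 52% were measured on both arrays and 3.91% were seen in CKO only. Cd74, the invariant chain, gave 453 intensity units in CKO against 17.5 in wild type, at least 25.7-fold higher, the largest bound of the members. H2-Ab1, the beta chain of I-A, gave 164 and 3.77 at its brightest probe (chr17:34406059-34406118), at least 9.82-fold higher. Its 10-spot probe gave 40.7 ± 4.15 over 7 kept spots in CKO and 5.76 ± 4.56 in wild type, where 0 of 10 spots were well above background. A further probe gave 22.8 and 3.30 (at least 1.36-fold), and the unmapped probe of H2-Ab1 was not well above background. In CKO 3 of the 4 probes were thus well above background and in wild type 0, and the 10-spot probe's spots did not overlap.
H2-Ab1: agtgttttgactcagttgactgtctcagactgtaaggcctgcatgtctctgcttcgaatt
H2-Aa: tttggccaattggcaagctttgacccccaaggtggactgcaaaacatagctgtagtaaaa
H2-Aa, the partner alpha chain of I-A, was seen at 47.9 intensity units in CKO against 3.54 in wild type (at least 2.87-fold), and its other probe gave 47.4 and 3.52 (at least 2.84-fold). H2-DMa, a chain of the chaperone that exchanges peptides on class II, gave 43.3 and 7.40, at least 2.59-fold higher. H2-Ob, a chain of the DM inhibitor H2-O, gave 22.7 and 16.9, at least 1.33-fold higher, and is the 1 of the 8 CKO-only members under 2-fold. Of the 50 members 7 (H2-D4, H2-T22, Psmb9, Cd74, H2-Ab1, H2-Aa and H2-DMa) passed a bound of 2-fold in CKO only, where 1.36% of all genes did. With normexp background correction, Cd74 (at least log2 2.53), H2-Ab1 (1.63) and H2-D4 (1.06) kept a bound above 2-fold, and H2-T22 (0.74), H2-Aa (0.66), H2-DMa (0.63) and Psmb9 (0.57) did not.

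H2-DMb1, the partner of H2-DMa, had probes that disagreed. One (chr17:34297109-34297168) gave 102 intensity units in CKO against 3.57 in wild type, at least 6.11-fold higher. The other (chr17:34294265-34294324), which RefSeq assigns to H2-DMb2 as well, gave 8.76 and 26.1 and was well above background in wild type only, at least 1.59-fold lower in CKO.
H2-DMb1, seen in CKO: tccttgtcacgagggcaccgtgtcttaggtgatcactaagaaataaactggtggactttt
H2-DMb1, seen in wild type: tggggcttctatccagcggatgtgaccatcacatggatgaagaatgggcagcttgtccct
No direction is given for H2-DMb1.

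H2-Eb1, the beta chain of I-E, was the exception of the class. Its single probe (chr17:34452050-34452511) gave 511 intensity units in CKO against 1060 in wild type, a log2 difference of -1.06 (2.09-fold lower).
H2-Eb1: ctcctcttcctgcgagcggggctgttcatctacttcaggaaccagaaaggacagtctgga
This probe was well above background in wild type, where the probes of H2-Ab1, H2-Aa, Cd74 and H2-DMa were not. The file describes it by a GenBank record of an I-A beta messenger RNA of the NOD strain, not by an I-E record, so its name and its description do not agree. The difference was just under 2-fold with normexp (-0.93), quantile normalization (-0.98), intensity-dependent centring (-0.94) and the deposited log2 table (-0.93). The transactivator Ciita gave 10.22 and 4.33 intensity units, and H2-Oa, H2-Eb2, H2-DMb2 and the pseudogene H2-Ea-ps were likewise not well above background on either array.

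The names H2-Ke2 and H2-Ke6 belong to genes of the MHC interval with other functions. H2-Ke2, now Pfdn6, a prefoldin subunit that helps fold actin and tubulin, gave 1901 intensity units in CKO against 1520 in wild type (1.24-fold). H2-Ke6, which RefSeq also lists as Hsd17b8, a hydroxysteroid dehydrogenase, gave 302 and 298 (1.01-fold). Without them 8 of 18 measured members were at least 2-fold higher.

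**Figure D4:**
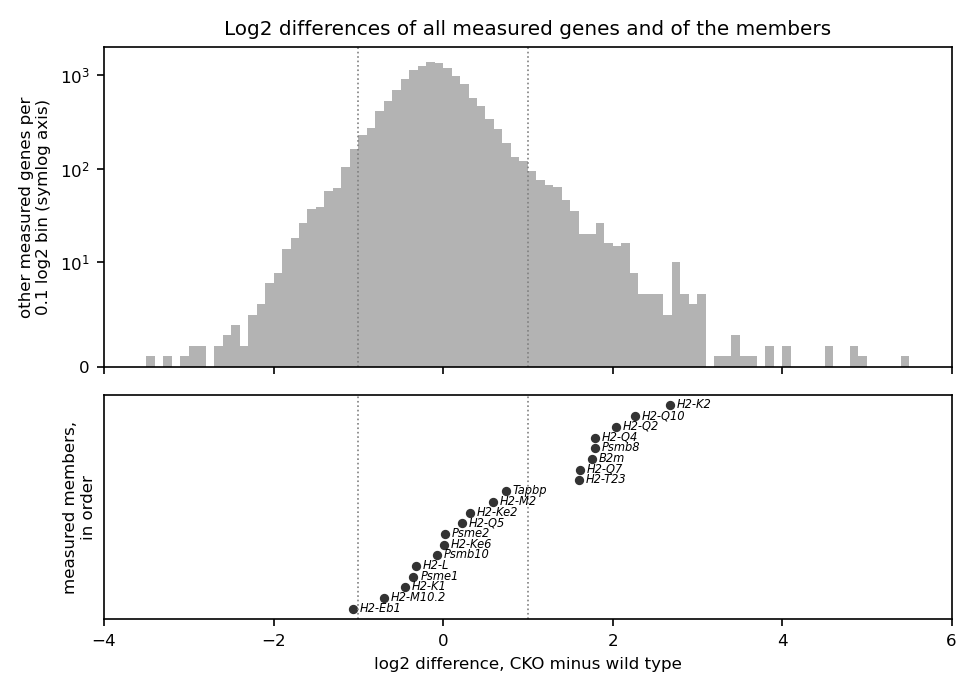
Above, the number of other measured genes (14201, symlog axis) per 0.1 log2 bin of the difference, CKO minus wild type. Below, the 20 measured members in order of their difference. Dotted lines mark 2-fold. The 8 members past 2-fold lie between 1.60 and 2.67, with a gap down to Tapbp at 0.74.

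The promoters of the members were read from RefSeq (GRCm38.p6), 250 bases before to 50 after the start site, and 37 of the 50 had an entry. MHC promoters are known for a shared upstream module that ends in a Y box, the reversed CCAAT element bound by NF-Y, and many class I promoters also hold an interferon-stimulated response element. The letters reported here, searched on both strands, were CTGATTGG for the Y box and GAAA, 2 bases of any kind and GAAA again for the interferon element. These Y box letters, on either strand, were in 17 of the 37 windows, beside 4.1% of all 32851 promoters. The windows of Psmb9 and Tap1 hold the same site, at -11 to -4 from the Psmb9 start site and -222 to -215 from that of Tap1. The H2-K1 sites lay at -6 to 2 and 9 to 16, at or past the start site. The interferon element was in 4 (B2m, Psme1, H2-T23 and H2-T22), beside 3.44%. In the class I heavy chains the Y box letters were on the minus strand in 11 of 19 windows. There they read CCAATCAG along the gene, which is CCAAT in direct and not in reversed order. In class II and its partners they were on the plus strand in 4 of 8 (H2-Aa, H2-Eb1, H2-Eb2 and H2-Oa). Whether any of these sites belongs to the shared upstream module was not tested.

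The Y box letters were found in genes higher in CKO (H2-Q7, H2-T23, H2-Aa and Psmb9) and in genes lower at their brightest probe (H2-Eb1 at -1.06 and H2-K1 at -0.45). All other windows with them belonged to genes not well above background on either array (H2-M1, H2-M9, H2-M10.1, H2-M10.3, H2-M10.4, H2-M10.5, H2-M10.6, H2-M11, H2-Oa, H2-Eb2 and Tap1). Without these letters, B2m, H2-Q10, H2-Q2, H2-Q4 and Psmb8 were at least 2-fold higher, and H2-T22, H2-DMa and H2-Ob were seen in CKO only. Of the genes with the interferon element, B2m and H2-T23 were over 3-fold higher in CKO, H2-T22 was seen in CKO only and Psme1 was not higher (-0.35). Promoters of 4 members that were higher are shown, each written 5′ to 3′ along its gene, with the Y box and the interferon element in capitals on whichever strand they lie.
B2m, chr2:122147437-122147736, plus strand: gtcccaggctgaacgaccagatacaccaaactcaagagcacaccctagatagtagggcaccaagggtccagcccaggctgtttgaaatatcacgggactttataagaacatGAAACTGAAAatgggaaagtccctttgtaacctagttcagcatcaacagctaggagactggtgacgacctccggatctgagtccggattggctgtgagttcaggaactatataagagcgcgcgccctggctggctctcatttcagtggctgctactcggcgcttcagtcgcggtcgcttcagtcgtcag
H2-T23, chr17:36032652-36032951, minus strand: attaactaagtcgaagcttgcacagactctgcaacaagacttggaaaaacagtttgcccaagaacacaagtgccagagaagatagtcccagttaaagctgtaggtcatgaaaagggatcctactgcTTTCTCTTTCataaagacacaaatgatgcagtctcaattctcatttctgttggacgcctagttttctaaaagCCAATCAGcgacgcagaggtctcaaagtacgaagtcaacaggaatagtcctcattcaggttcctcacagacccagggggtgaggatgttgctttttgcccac
H2-Aa, chr17:34287774-34288073, minus strand: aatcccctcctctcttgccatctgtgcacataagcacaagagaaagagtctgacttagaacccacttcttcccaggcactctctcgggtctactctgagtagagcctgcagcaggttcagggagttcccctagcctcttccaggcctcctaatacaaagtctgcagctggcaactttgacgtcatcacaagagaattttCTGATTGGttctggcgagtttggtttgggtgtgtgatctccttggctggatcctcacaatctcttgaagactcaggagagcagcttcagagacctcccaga
Psmb9, chr17:34187281-34187580, minus strand: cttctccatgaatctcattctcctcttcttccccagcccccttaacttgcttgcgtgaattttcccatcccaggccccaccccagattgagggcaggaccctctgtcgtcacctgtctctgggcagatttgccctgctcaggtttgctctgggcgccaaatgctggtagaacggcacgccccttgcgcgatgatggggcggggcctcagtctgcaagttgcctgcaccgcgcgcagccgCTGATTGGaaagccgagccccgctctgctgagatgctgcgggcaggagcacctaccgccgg
The Psmb9 window shares 275 bases with that of Tap1, which is read in the opposite direction from a start site 226 bases away. Psmb9 was seen in CKO and Tap1 on neither array. A match of letters is a description of the sequence and no evidence of binding.

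Partner genes of the same pathways stayed close to the background of all genes, with few exceptions. Of all measured genes 4.11% were at least 2-fold higher and 3.98% lower. Of 14 class I loading partners, among them the chaperones Calr, Canx and Pdia3, 14 were measured and 0 passed 2-fold in either direction, with a median log2 difference of -0.06. The farthest from 0 were Hspa5, the chaperone BiP (5081 and 3510 intensity units, 0.52), Erap1, which trims peptides (86.2 and 60.4, 0.50), and Nlrc5, the class I transactivator (265 and 353, -0.43). The 14 subunits of the standard proteasome core were all measured, 0 passed 2-fold and their median was -0.06. In neither of these lists did a gene differ as much as B2m or H2-Q4 did.

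Of 19 class II pathway partners 14 were measured, 1 was at least 2-fold higher and 0 lower, with a median log2 difference of 0.20. The 1 was Ctss, cathepsin S, which degrades the invariant chain in antigen presenting cells. It gave 1962 intensity units in CKO against 46.0 in wild type, a log2 difference of 5.40, the largest of all measured genes. Legumain (Lgmn) gave 4400 and 7889 (-0.85), Rfxank, a subunit of the factor that binds class II promoters, gave 54.3 and 95.1 (-0.82), and the thiol reductase Ifi30 gave 517 and 345 (0.57). The costimulatory genes Cd80, Cd86 and Cd40 were not well above background on either array.

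Of 14 MHC-like genes outside the H2 names, 12 were on the array by name and 4 were measured. Fcgrt, the neonatal Fc receptor heavy chain, which also pairs with B2m, gave 368 intensity units in CKO against 117 in wild type, 3.14-fold higher. Cd1d1, which presents lipids, gave 744 and 457 (1.62-fold higher), while Hfe, the iron regulator, gave 843 and 1064 (log2 difference -0.35) and Azgp1 gave 43.0 and 51.4 (-0.27). Fcgrt was the 1 gene of this list past 2-fold on both arrays. Procr was seen in CKO only (at least 3.29-fold), and Raet1a (at least 2.06-fold) and Mill1 (at least 1.81-fold) in wild type only.

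Of 19 interferon and NF-kB regulators of MHC genes, 16 were measured, 1 was at least 2-fold higher and 0 lower, and the median log2 difference was 0.22. Irf1, an activator of class I and immunoproteasome genes, gave 246 intensity units in CKO against 116 in wild type, 2.11-fold higher. This call was lost with each array scaled to its median and with normexp background correction, which left 0 of the list higher. Irf8 gave 68.8 and 36.3 (log2 difference 0.91) and Irf2 gave 57.1 and 90.0 (-0.67). Irf7, itself an interferon-induced gene, went the other way and was seen in wild type only, at 75.9 against 6.45 in CKO, at least 4.63-fold lower. Relb was seen in CKO only (at least 2.82-fold), and Ifng, interferon gamma, was not well above background on either array.

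**Figure D5:**
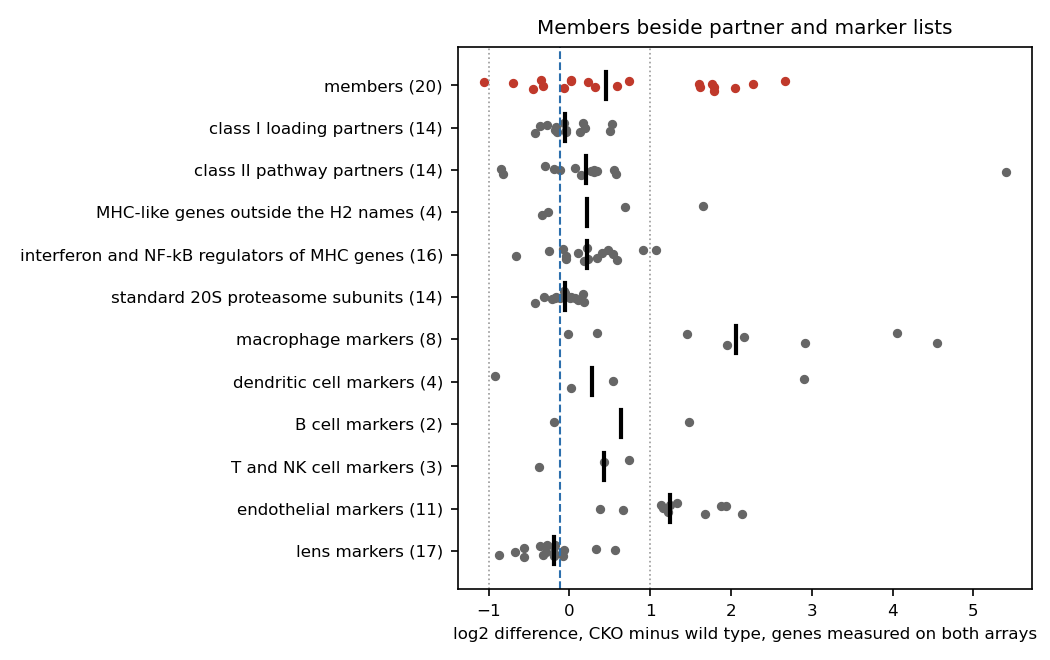
Log2 difference, CKO minus wild type, of the measured genes of the members (red) and of each partner or marker list (grey), with the number measured in parentheses. Black bars are medians, the dashed line is the median of all measured genes (-0.12) and dotted lines mark 2-fold. Macrophage (2.06) and endothelial (1.25) markers have the highest medians, and the 2 proteasome and loading lists sit near 0.

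Of the cell type lists, macrophage and endothelial markers were mostly higher in CKO, and dendritic, B, and T and NK cell markers went both ways. Of 19 macrophage markers 18 were well above background in CKO and 9 in wild type, and their summed scaled levels were 33.9 and 6.44, a ratio of 5.27. Among the 8 measured on both arrays 6 were at least 2-fold higher, with Trem2 (440 and 18.6 intensity units) and Tyrobp (665 and 39.8) farthest. Of all measured genes 4.11% were at least 2-fold higher. With normexp background correction 5 of the 8 were higher and their median log2 difference fell from 2.06 to 1.30. C1qc was seen in CKO only (820 against 16.7, at least 48.8-fold), as were 3.91% of all genes. C1qb stood apart at 665 and 668, and Itgam was seen in wild type only. The part of macrophages in the class I and class II differences was not tested. In whole lens RNA, more cells of a type and more RNA per cell cannot be told apart.

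Of 12 endothelial markers 11 were measured and 9 were at least 2-fold higher (5 with normexp background correction). Of all measured genes 4.11% were (1.64% with normexp). The summed levels of the endothelial markers were 43.3 in CKO and 19.0 in wild type, a ratio of 2.27. Vwf gave 949 and 214 intensity units and Tie1 109 and 28.3. Endothelium carries class I and B2m as most tissues do, and its part in the differences was not tested either. Of 12 dendritic cell markers 6 were well above background in CKO and 5 in wild type. Their summed scaled levels were 7.27 and 7.44, of which Fscn1 alone made up 3.08 and 5.83. Cd83 was 7.48-fold higher, and Itgax (at least 11.1-fold) and Clec10a (at least 5.30-fold) were seen in CKO only. Batf3 was 1.45-fold higher, Xcr1 differed by 1.01-fold, Fscn1 was 1.89-fold lower and Zbtb46 was seen in wild type only (at least 1.43-fold lower in CKO). Flt3, Clec9a, Ccr7, Siglech and Cd209a were not well above background on either array. Of 8 B cell markers 3 were well above background on each array. They summed to 0.79 and 0.83, of which Ms4a1, seen in wild type only, made up 0.044 and 0.32. Cd79a was 2.79-fold higher and Cd79b was seen in CKO only (at least 1.72-fold), and Pax5, Cd22 and Blk were among those not well above background. Of 10 T and NK cell markers 4 were well above background in CKO and 3 in wild type. They summed to 5.18 and 3.86, of which Nkg7, 1.35-fold higher, made up 4.50 and 3.34. Cd2 was seen in CKO only (40.4 against 7.16 intensity units, at least 2.42-fold), Lck was 1.67-fold higher and Cd3e was 1.30-fold lower. Cd3d, Cd3g, Cd4, Cd8a, Klrb1c and Ncr1 were not well above background on either array. The part of these cell types in the differences was not tested.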

How the data were processed

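Total RNA of lenses was amplified, labelled with Cy3 and hybridised to 1 one-colour Agilent array per genotype, per the labels' protocols. The scanner intensity values that the authors deposited had been corrected for background by Agilent Feature Extraction 10.7, per the submitters' processing notes, and carried no normalization across the arrays. A table of log2 values was deposited too (median 4.87 on each array, r = 0.9996 and 0.9998 with the scanner signal of the same array across probes). Its differences between arrays correlated with those of the scanner signal at r = 0.99 and ran the same way. How it was scaled was not stated in these sources, so it was used only as an alternative.

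Control and outlier spots were left out, log2 was taken of each spot, each array's 75th percentile was subtracted and the spots of a probe were then averaged. Printed intensities are averages without log2, so for repeated spots a fold can differ slightly from their ratio. A probe counted as well above background if the scanner software had marked over 50% of its spots so. Measured genes had an unsaturated probe of this kind on both arrays, and the brightest one was used. A gene seen on 1 array was given an at-least fold. Differences are CKO minus wild type, counted from 2-fold. With 1 array per genotype no test exists, and the number of arrays limits the precision. Symbols came from RefSeq (GRCm38.p6), through accessions for 27668 probes, current symbols for 5589 and older symbols for 471, while 7446 kept the file's name. Probe positions are in mm9, per the file headers.

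All members were named by role, with the genes of each partner and marker list that differed most, some of which, with 1 promoter motif, are not reported here. The members and lists were chosen with earlier results of these data known. Alternatives were normexp (offset 50), quantile normalization, scaling to the median, intensity-dependent centring, the deposited table, stricter and looser detection filters, averaging a gene's probes, outlier spots kept and other fold thresholds. The gene summary was tested on simulated data with 1 probe per gene. That simulation did not cover the choice among probes, repeated spots or signal shared by close copies. Normexp used limma 3.58.1 in R 4.3.3, and the other steps Python 3.11.15 with pandas 2.3.3, numpy 2.4.6, statsmodels 0.14.6 and scipy 1.17.1.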

Additional observations from a re-analysis of the deposited data

How the results depend on the processing

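No paired analysis was possible because each genotype had 1 array, and for the same reason no array could be left out and the slide could not be a block. No called difference changed direction under any setting. The number of members at least 2-fold higher was 8 and stayed between 7 and 10 with 2 exceptions: 16 of 29 when detection on either array sufficed (all genes 7.89%) and 19 of 50 with no filter (7.41%). Of the 8, 7 stayed at least 2-fold higher under every setting that measured them, and Psmb8 did not with normexp, which left 7 of 20 where 1.64% of all genes were higher. The number of members lower was 1, became 2 from 1.5-fold and 3 with no filter, and was 0 from 3-fold, with normexp, quantile normalization, intensity-dependent centring and the deposited table. The members' median of 0.45 became 1.61 when detection on either array sufficed (all genes -0.11), which admits genes seen only where they are high, and 0.92 with each gene's dimmest measured probe, an alternative chosen after seeing the data, as was leaving out H2-Ke2 and H2-Ke6. Median scaling moved the median of all genes from -0.12 to -0.24 and the calls from 584 higher and 566 lower to 470 and 844, and left 8 members higher and 1 lower. The MHC-like list's median of 0.21 became 0.69 with brighter probes only, -0.038 with no filter and -0.27 with detection on either array. The standard proteasome list's median of -0.06 became 0.20 with the deposited table, 0.20 with quantile normalization and 0.18 with intensity-dependent centring. The cause of these moves was not tested. Signal over background limits the 8 members seen in CKO only, which have only a bound in wild type, and the 21 seen on neither array.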
